A study of Homo sapiens with 6 samples.

Results

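Homologous recombination, the Fanconi anemia pathway and the checkpoint kinases are described here through 35 genes, picked by name from a table of 58825 genes. All 35 names were found, each in 1 row. The 6 RNA libraries came from the human lung adenocarcinoma line PC9, which carries an activating EGFR mutation. The cells overexpressed FOXM1, a forkhead transcription factor of the cell cycle, as the allele rs3742076_A in 3 libraries (A) or as the allele rs3742076_G in 3 libraries (G). Every library came from cells given gefitinib, an EGFR inhibitor, at 100 nM for 24 h, so overexpression and drug are shared by both groups, and G against A is the comparison that the design names. The vector, its promoter and whether a line was 1 clone are not stated by the labels. The labels also do not say whether replicates were separate cultures. The p-values set the difference between groups against the spread among libraries of the same group, and that spread may be technical.

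Double-strand breaks that arise in S and G2 phase are repaired with the sister chromatid as template. The MRN complex and CtIP start to trim the ends, BRCA1 with BARD1, PALB2 and BRCA2 prepare the single strand for strand exchange, and RAD54L and RAD51AP1 help it invade the intact copy. The Fanconi core complex attaches ubiquitin to FANCI and FANCD2 at crosslinked DNA, and ATM and ATR with CHEK2 and CHEK1 hold the cell cycle meanwhile. Many of these genes are transcribed most in S phase, and PC9 cells slow their cycle under EGFR inhibition.

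Values are gene FPKM, fragments per kilobase of the gene's exons, scaled by how many fragments the library mapped. Estimated depth was 20030000 to 23500000 read-pair equivalents per library. FOXM1 stood at 25.5, 10.5 and 10.1 FPKM in A replicates 1, 2 and 3 and at 14.6, 14.3 and 13.96 FPKM in the G replicates. The A libraries therefore lay on both sides of the G libraries, with A replicate 1 apart (log2 change 0.031, exact two-sided permutation p = 1, where 0.1 is the smallest p that 3 against 3 allows). Group means of FOXM1 were 15.3 FPKM in A and 14.3 FPKM in G, a ratio of 0.933, so the ratio of means and the log2 change pointed in different directions. The mitochondrial share of summed FPKM was 22.1% to 22.2% in A and 17.7% to 19.7% in G, and its part in the results below was not tested. Of 10 lung epithelial markers 6 were above the filter, summing to 2789 to 3341 FPKM in A and 2613 to 2865 FPKM in G, while NKX2-1, SFTPB, SFTPC and NAPSA, which mark lung lineage and surfactant-producing cells, were all below 1 FPKM. Of these 6 markers 4 had a negative log2 change, 3 were lower in G without overlap and 2 had an unadjusted p under 0.05, lower in G (smallest limma adjusted p = 0.182). Their part in the results below was not tested. Fibroblast markers summed to 2.01 to 2.86 FPKM over all libraries with DCN and LUM listed at no estimate. Leukocyte markers summed to 37.9 to 50.4 FPKM, nearly all of it CD68, with PTPRC and CD3E near 0. Endothelial markers summed to 0.201 to 0.710 FPKM.

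No repair gene passed the test, but most lay slightly higher in the G libraries. Of the 35 genes 27 reached at least 1 FPKM in at least 3 libraries and were tested. Their median log2 change, G minus A on log2(FPKM + 1), was 0.17, and 22 were positive and 5 negative. Over all 12787 tested genes the median was 0.022 and 55.1% were positive. The summed FPKM of the 35 genes was 108.5, 102.8 and 110.5 in A replicates 1 to 3 and 119.9, 119.7 and 127.1 in the G replicates, without overlap. In bulk RNA, fewer cells that express a gene and less RNA per cell cannot be told apart. The filter can be met through 1 group alone, so the 27 do not stand for all 35.

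limma called 0 of the 27 at an adjusted p under 0.05, and the smallest adjusted p was 0.184. Over all tested genes it called 0.109%. At an unadjusted p under 0.05 limma placed 9 of the 27 higher and 0 lower in G, where 10.5% of all tested genes were higher and 6.82% lower. All G libraries lay above all A libraries for 9 of the 27 and below them for 2, where the shares over all tested genes were 15.4% and 9.57%. The share of higher genes among the 27 was thus above that of all genes, though the difference was not tested. Leaving out A replicate 2, G replicate 2 or G replicate 3 brought the 9 genes with an unadjusted p under 0.05 to 4, 5 and 4, while all genes stood at 6.62%, 8.51% and 7.26%. The median without G replicate 3 was 0.10, and the other single-library omissions gave 0.14 to 0.18. Without A replicate 1, the library with high FOXM1, 23 were positive and 8 had an unadjusted p under 0.05, higher in G, where the share over all genes was 12.9%.

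The repair genes differed from the transcriptome in length and GC content, and the part of this in the result was not tested. Their median exon length was 6231 bases against 4447 for all tested genes, and their median GC content was 42.4% against 49.7%. With smooth trends over length and GC content removed from each library, an alternative chosen after seeing the data, the median was 0.077 against -0.0071 for all genes. In that setting 20 of 27 were positive. At an unadjusted p under 0.05, 5 were higher and 1 lower, where 6.94% of all genes were higher and 7.79% lower. By level, the 12 tested genes with a mean over 4 FPKM had a median of 0.16 and the 15 below it one of 0.17. All tested genes with a mean of 1 to 12 FPKM, the range that holds the 27, had a median of 0.043 with 59.8% positive, which is above the 0.022 and 55.1% of all tested genes. Scaling also mattered. With equal sums per library the median of all genes was 0.110, that of the 27 was 0.24, and 15 of the 27 were higher at an unadjusted p under 0.05 against 22.3% of all genes. In the same setting 17 of the 27 were higher without overlap, against 29.5% of all genes.

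**Figure D1:**
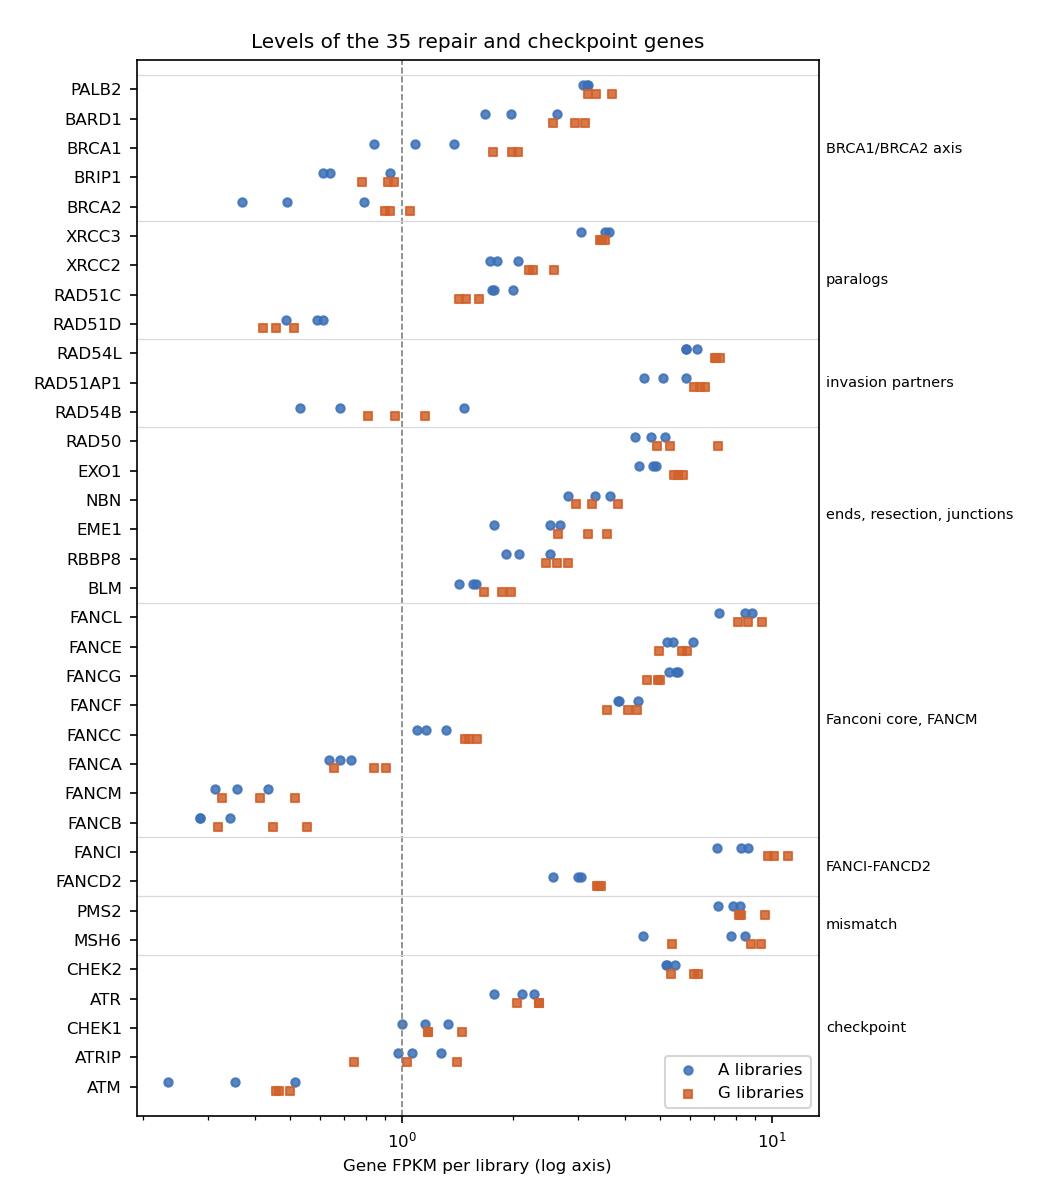
Gene FPKM (log axis) of all 35 genes in each library, circles for A and squares for G, ordered by role and level. The dashed line marks the 1 FPKM of the filter, and the 8 untested genes lie mostly to its left.

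**Figure D2:**
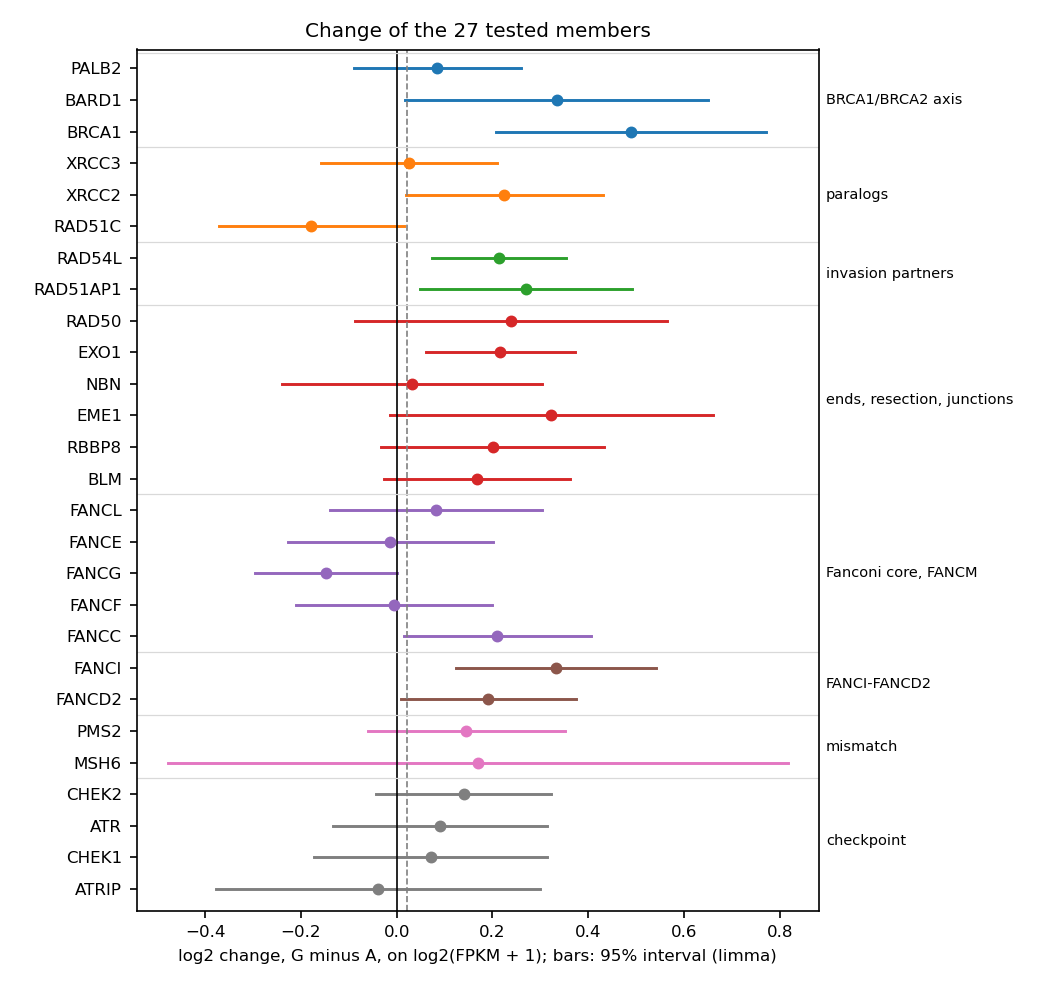
log2 change, G minus A on log2(FPKM + 1), of the 27 tested genes with 95% intervals from limma. The dashed line marks the median of all tested genes, 0.022, and 22 of the 27 points lie above 0 although no adjusted p was under 0.05.

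Since many of these genes are known to be transcribed in S phase, their promoters were searched for short words tied to cell cycle transcription. RefSeq promoters, 250 bases before to 50 after a start on GRCh38.p14, were matched for 32 of the 35 genes, all but FANCI, NBN and RAD54B. The E2F words TTTGGCGC, TTTCGCGC, TTTCCCGC and TTTGCCGC, read on both strands, occurred in 7 of the 32 (21.9%). They occurred in 3.99% of all 27305 genes and in 6.72% of the 8894 of these genes that were tested here. The 30-base windows that hold them follow with the word in capitals, each 5′ to 3′ on the strand of its gene.

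EXO1, chr1:241848197-241848226, plus strand: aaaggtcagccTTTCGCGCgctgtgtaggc
FANCC, chr9:95317737-95317766, minus strand: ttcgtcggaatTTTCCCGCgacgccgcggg
FANCC, chr9:95317863-95317892, minus strand: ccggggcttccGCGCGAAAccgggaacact
FANCD2, chr3:10026424-10026453, plus strand: cgtcgggcctgGCGGGAAAgtcgaaaacta
XRCC2, chr7:152676102-152676131, minus strand: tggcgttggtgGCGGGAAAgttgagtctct
MSH6, chr2:47783137-47783166, plus strand: ctccccccagaTTTCCCGCcagcaggagcc
PMS2, chr7:6009131-6009160, minus strand: cgggaagtattTTTGCCGCcccgcccggaa
FANCA, chr16:89816801-89816830, minus strand: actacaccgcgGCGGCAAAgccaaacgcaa

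EXO1, FANCC, FANCD2 and XRCC2 are among the 9 genes with an unadjusted p under 0.05, MSH6 and PMS2 are not, and FANCA was below the filter. The words of EXO1, XRCC2 and MSH6 begin at bases 5, 22 and 4 after the start, and that of FANCD2 spans it. Wholly before the start, 3 of the 32 genes held an E2F word, FANCA, FANCC and PMS2, against 3.4% of all genes. Of these 3, only FANCC is among the 9. CCAAT, the word bound by NF-Y, occurred on either strand in 16 of the 32 genes (50%), against 39.7% of all genes and 43.2% of tested ones. BRCA1 and RAD54L, which had no E2F word in the window, each held a CCAAT upstream of a start, shown here in capitals within 90 bases. In RAD54L the word shown is on the opposite strand, so as ATTGG. RAD54L also held a CCAAT on its own strand, 77 to 73 bases before another RefSeq start, which is not shown.

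BRCA1, chr17:43125495-43125584, minus strand: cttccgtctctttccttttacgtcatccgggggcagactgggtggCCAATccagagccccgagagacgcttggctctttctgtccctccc
RAD54L, chr1:46247578-46247667, plus strand: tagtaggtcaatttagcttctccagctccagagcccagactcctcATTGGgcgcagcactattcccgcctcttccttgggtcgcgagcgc

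The CHR words TTTGAA and TTCGAA, which FOXM1 and its partners are known to act through, occurred in 3 of the 32 genes, ATM, BRIP1 and FANCC (9.38%, against 19.5% of all genes and 14.6% of tested ones). The forkhead word TAAACA occurred in ATRIP and BRIP1 (6.25%, against 14.7% of all genes and 9.38% of tested ones). None of these words contains another. A match is a description of letters in a window and not a measured binding site.

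Among the BRCA1 and BRCA2 partners, BRCA1 had the highest log2 change of the 27 tested genes. BRCA1 (ENSG00000012048, chromosome 17, 43044295 to 43170245, minus strand), a ubiquitin ligase subunit that promotes repair by recombination, was at 1.38, 0.838 and 1.09 FPKM in A replicates 1 to 3 and at 1.99, 2.06 and 1.77 FPKM in the G replicates. Every G library exceeded every A library. Means were 1.10 ± 0.273 and 1.94 ± 0.153 FPKM (SD, n = 3), a ratio of 1.76. For BRCA1 limma gave a log2 change of 0.49 ± 0.117 (SE) and an adjusted p of 0.184, and the change ranged from 0.40 to 0.58 when 1 library was left out. These levels rest on an estimated 180 to 406 read pairs per library. BRCA1 overlaps AC060780 on the same strand, and BRCA1 held 54.6% of the read pairs of that locus. For the summed locus the log2 change was 0.45 and the limma adjusted p 0.165.

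BARD1 (ENSG00000138376, chromosome 2, 214725646 to 214809683), the RING partner of BRCA1, was at 1.67, 1.97 and 2.63 FPKM in A and 3.13, 2.56 and 2.93 FPKM in G. G replicate 2 lay below A replicate 3, so the groups overlap (log2 change 0.33 ± 0.131, limma adjusted p = 0.271). PALB2, the bridge from BRCA1 to BRCA2, was the most expressed gene of this role at 3.10, 3.17 and 3.19 FPKM in A and 3.70, 3.18 and 3.35 FPKM in G. Its interval of -0.09 to 0.26 on the log2 scale contained 0. BRCA2, which acts on single-stranded DNA before strand exchange, was under the filter at 0.791, 0.370 and 0.490 FPKM in A and 1.06, 0.900 and 0.929 FPKM in G. The 2 groups of BRCA2 values did not overlap. With a filter at 0.5 FPKM BRCA2 was tested and had a log2 change of 0.35 with a limma adjusted p of 0.262. BRIP1, a helicase that binds BRCA1, was at means of 0.726 and 0.885 FPKM, and its groups overlapped.

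The paralog group of RAD51C, RAD51D, XRCC2 and XRCC3, which supports strand exchange, pointed in different directions. XRCC2 (ENSG00000196584, chromosome 7, 152644776 to 152676141) was at 2.06, 1.81 and 1.73 FPKM in A and 2.57, 2.26 and 2.21 FPKM in G. All G values were above the A values (log2 change 0.22 ± 0.0851, limma adjusted p = 0.261). RAD51C (ENSG00000108384, chromosome 17, 58692573 to 58735611), which joins both paralog complexes, was at 2.00, 1.75 and 1.78 FPKM in A and 1.49, 1.62 and 1.42 FPKM in G. Here all G values were below the A values (log2 change -0.18 ± 0.0799, limma adjusted p = 0.317). XRCC3, the partner of RAD51C in one of those complexes, was at 3.54, 3.64 and 3.06 FPKM in A and 3.43, 3.48 and 3.54 FPKM in G, with a log2 change of 0.026 and an interval of -0.16 to 0.21. RAD51D was untested at means of 0.563 and 0.464 FPKM, and it overlaps AC004223 on the same strand and held 23.2% of the read pairs of the joined locus. RAD51C is the 1 tested paralog with a negative change, although XRCC3 was at -0.020 with quantile normalization, and the median over the 3 was 0.026.

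Of the genes that aid strand invasion, RAD54L and RAD51AP1 were both apart between the groups. RAD54L (ENSG00000085999, chromosome 1, 46247688 to 46278473, plus strand), the motor that drives strand invasion, was at 6.29, 5.85 and 5.87 FPKM in A and 7.04, 7.07 and 7.23 FPKM in G. The lowest G library exceeded the highest A library (log2 change 0.21 ± 0.0577, limma adjusted p = 0.194). RAD51AP1 (ENSG00000111247, chromosome 12, 4538798 to 4560048), which stimulates joint formation, was at 5.07, 4.53 and 5.86 FPKM in A and 6.40, 6.61 and 6.17 FPKM in G. The groups were again apart (log2 change 0.27 ± 0.0916, limma adjusted p = 0.236). RAD54B, a relative of RAD54L, was untested at 0.530, 0.681 and 1.47 FPKM in A and 0.811, 1.15 and 0.957 FPKM in G, with the highest and the lowest value both in A. It shares its locus with FSBP, which had more of the read pairs.

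All 6 genes of end processing and junction handling were tested and positive, with a median of 0.21, although NBN was at -0.018 with quantile normalization and at -0.072 with length and GC trends removed. EXO1 (ENSG00000174371, chromosome 1, 241847967 to 241895148), the exonuclease of long-range resection, was at 4.38, 4.78 and 4.87 FPKM in A and 5.59, 5.43 and 5.76 FPKM in G. The groups did not overlap (log2 change 0.22 ± 0.0645, limma adjusted p = 0.205). BLM, the helicase that resects ends and dissolves double Holliday junctions, was at 1.55, 1.43 and 1.59 FPKM in A and 1.97, 1.67 and 1.87 FPKM in G, also without overlap (log2 change 0.17, limma adjusted p = 0.344). With length and GC trends removed the change of BLM was 0.066 (limma adjusted p = 0.675). RBBP8, which encodes CtIP, was at 2.52, 1.91 and 2.07 FPKM in A and 2.81, 2.62 and 2.46 FPKM in G. G replicate 3 of RBBP8 fell just inside the A range.

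EME1, a subunit of the junction-cutting MUS81 nuclease, was at 2.67, 1.78 and 2.52 FPKM in A and 2.65, 3.20 and 3.58 FPKM in G. Its mean ratio of 1.35 went with an overlap of the groups and with a limma adjusted p of 0.306, and its log2 change of 0.32 was 0.20 without A replicate 2. RAD50, the clamp of the MRN complex, was at 5.15, 4.71 and 4.28 FPKM in A and 5.32, 4.91 and 7.16 FPKM in G, with G replicate 3 well above the other 5 libraries. Its log2 change of 0.24 was 0.10 without G replicate 3 and 0.090 with length and GC trends removed. NBN, the MRN subunit that recruits ATM, was at 3.32, 2.81 and 3.66 FPKM in A and 3.85, 2.96 and 3.27 FPKM in G. The log2 change of NBN was 0.032, with an interval of -0.24 to 0.30.

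The Fanconi core complex, an assembly that acts as a ubiquitin ligase, gave no shared direction. Of its 5 tested genes 2 were positive and 3 negative, with a median of -0.0056. FANCC (ENSG00000158169, chromosome 9, 95099054 to 95426796) was at 1.16, 1.10 and 1.31 FPKM in A and 1.52, 1.48 and 1.59 FPKM in G, without overlap (log2 change 0.21 ± 0.0808, limma adjusted p = 0.267), and with length and GC trends removed its change was 0.077. FANCG (ENSG00000221829, chromosome 9, 35073835 to 35080016), a scaffold subunit, lay the other way, at 5.58, 5.52 and 5.27 FPKM in A and 4.92, 4.597 and 4.97 FPKM in G. All G values were below the A values (log2 change -0.15 ± 0.0616, limma adjusted p = 0.290), and with equal sums per library its change was -0.057.

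FANCL, the catalytic RING subunit and the most expressed of the core, was at 8.47, 7.22 and 8.83 FPKM in A and 9.39, 8.09 and 8.62 FPKM in G. Its interval on the log2 scale was -0.14 to 0.30. FANCE, which contacts FANCD2, was at 6.12, 5.42 and 5.21 FPKM in A and 4.95, 5.71 and 5.91 FPKM in G (interval -0.23 to 0.20). FANCF, an adaptor subunit, was at 3.86, 4.35 and 3.84 FPKM in A and 4.08, 3.59 and 4.32 FPKM in G (interval -0.21 to 0.20). The log2 changes of FANCE and FANCF, -0.014 and -0.0056, turned positive under both equal-sum scalings. FANCA, FANCB and FANCM, the last a translocase that brings the core to DNA, were untested, with A and G means of 0.683 and 0.801, 0.304 and 0.441, and 0.368 and 0.418 FPKM. The 2 groups overlapped for each of these 3.

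FANCI and FANCD2, the pair that the core ubiquitinates, were both above the A range in all G libraries. FANCI (ENSG00000140525, chromosome 15, 89243949 to 89317261), the most expressed of the 35 genes, was at 8.65, 7.12 and 8.24 FPKM in A and 11.1, 10.1 and 9.75 FPKM in G. Its means were 8.00 ± 0.792 and 10.3 ± 0.670 FPKM (SD, n = 3), with a log2 change of 0.33 ± 0.0867 and a limma adjusted p of 0.187. FANCD2 (ENSG00000144554, chromosome 3, 10026414 to 10101930) was at 3.04, 2.56 and 2.99 FPKM in A and 3.37, 3.45 and 3.40 FPKM in G. The G libraries of FANCD2 were close together and above the A range (log2 change 0.19 ± 0.0757, limma adjusted p = 0.274). With length and GC trends removed the change of FANCD2 was 0.080 (limma adjusted p = 0.587). In the core complex, by contrast, the median was near 0, although the difference between the 2 roles was not tested.

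MSH6 and PMS2 belong to mismatch repair, in which MSH6 recognises mispairs and PMS2 nicks the new strand. PMS2 was at 8.22, 7.85 and 7.15 FPKM in A and 8.26, 8.16 and 9.61 FPKM in G (log2 change 0.15, limma adjusted p = 0.421). The change of PMS2 was 0.078 without G replicate 3, 0.096 without A replicate 3, 0.24 with equal sums per library and 0.080 with length and GC trends removed. MSH6 had the largest standard error of the 27 (0.268 on the log2 scale), at 4.48, 7.78 and 8.46 FPKM in A and 5.38, 8.80 and 9.35 FPKM in G. Replicate 1 was the low library in both groups, and the interval of the log2 change ran from -0.48 to 0.82. Without A replicate 1 the change of MSH6 was -0.075. PMS2, CHEK2, FANCD2 and BRCA1 have near-identical partial copies in the genome, and no source used here says how shared reads were assigned, so their levels are uncertain to that extent.

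The checkpoint genes had the smallest median after the core complex and the paralogs, 0.081 over 4 tested genes. CHEK2, the kinase downstream of ATM, was at 5.18, 5.22 and 5.46 FPKM in A and 5.34, 6.15 and 6.32 FPKM in G (log2 change 0.14, limma adjusted p = 0.393). ATR, the kinase of stalled forks, had means of 2.05 ± 0.252 and 2.25 ± 0.174 FPKM (SD, n = 3). CHEK1, its effector, had means of 1.16 ± 0.166 and 1.27 ± 0.160 FPKM. ATRIP, which brings ATR to DNA, had means of 1.10 ± 0.153 and 1.06 ± 0.336 FPKM. Signs were not stable here: ATR was at -0.081 and CHEK1 at -0.019 with length and GC trends removed, and ATRIP, at -0.040 as tested, was at 0.016 with equal sums per library and 0.055 with library weights. CHEK1 held 6.15% of the read pairs of a locus shared with STT3A on the same strand, and ATRIP 88.5% of one shared with TREX1. ATM was untested at 0.353, 0.233 and 0.513 FPKM in A and 0.465, 0.5001 and 0.456 FPKM in G, with both extremes in A.

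**Figure D3:**
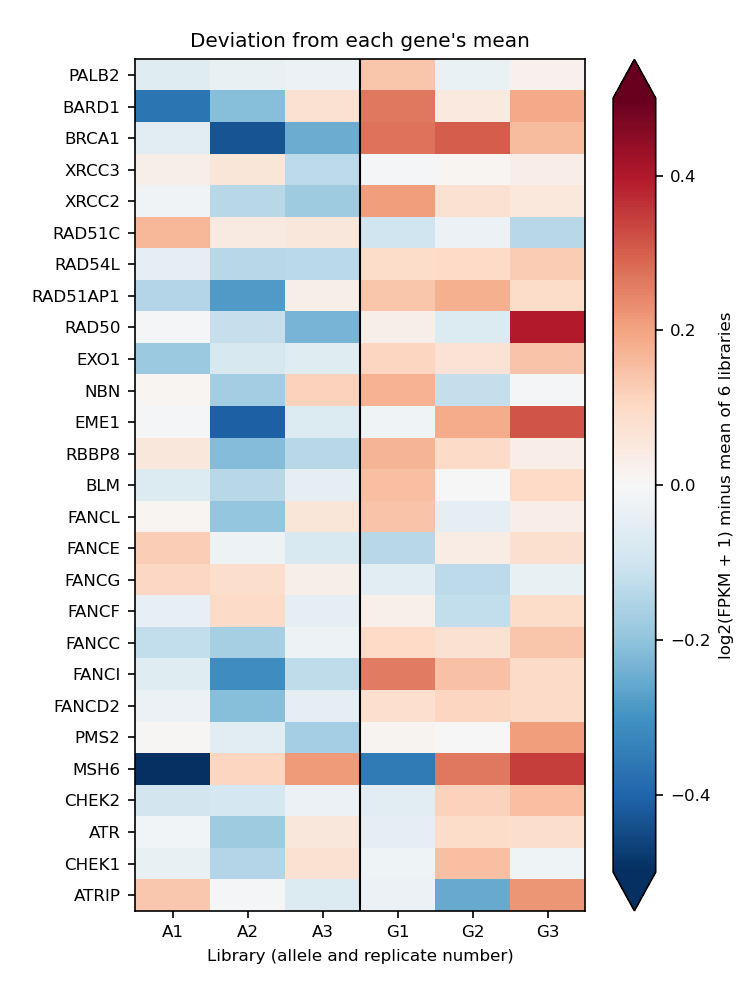
Deviation of log2(FPKM + 1) from each gene's mean over the 6 libraries, with 1 row per tested gene and 1 column per library (red above, blue below). The A columns are mostly blue and the G columns mostly red, with RAD51C and FANCG the other way and MSH6 lowest in replicate 1 of both groups.

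The library profile shows how evenly the shift was spread. The median deviation of the 27 genes was -0.029, -0.14 and -0.047 in A replicates 1 to 3 and 0.084, 0.072 and 0.094 in the G replicates. All tested genes had median deviations of -0.016 to 0.021. A replicate 2 was the lowest A library for 14 of the 27 genes and A replicate 1 the highest for 13. All 3 G libraries thus had a positive median and A replicate 2 the lowest.

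At transcript level the annotated isoforms of the 35 genes gave 482 rows, of which 51 from 28 genes passed the filter. limma called 0 of them, where it called 0.147% of all 29990 tested transcripts. At an unadjusted p under 0.05 there were 2, both higher in G, which is 3.92% against 7.81% of all tested transcripts. Of the 51, 39 had a positive change. The transcript with the smallest p was ENST00000425173 of RAD51C, a short coding model with 5 exons, at 0.206, 0.280 and 0.114 FPKM in A and 2.52, 1.415 and 1.4004 FPKM in G (log2 change 1.19, limma adjusted p = 0.263). It pointed opposite to the gene as a whole and made up 1.15% of the gene's estimated fragments in A and 12.5% in G. For RAD51C, then, the gene value and this isoform give different directions.

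ENST00000357654, the full-length BRCA1 transcript with 23 exons, was at 0.811, 1.03 and 1.27 FPKM in A and 2.31, 2.15 and 1.72 FPKM in G. It was the most abundant BRCA1 isoform and had a log2 change of 0.59, with a limma adjusted p of 0.543. ENST00000371975, which carried 98.8% of the RAD54L fragments in A and 99.4% in G, was at 6.45, 6.04 and 5.99 against 7.31, 7.20 and 7.51 FPKM, so the RAD54L gene value is in effect this transcript. The BARD1 main transcript, ENST00000260947, had means of 2.65 ± 0.854 and 3.78 ± 0.465 FPKM (SD, n = 3) and its groups overlapped. For FANCI the most abundant isoform was ENST00000566895, annotated with a retained intron, at 6.29, 2.16 and 9.79 FPKM in A and 12.98, 10.2 and 11.2 FPKM in G. A short coding model of FANCI, ENST00000570225, was at 1.68, 0.0532 and 0.678 FPKM in A and 1.71, 2.25 and 2.77 FPKM in G. Both FANCI transcripts were higher in all G libraries than in any A library, with limma adjusted p of 0.681 and 0.639.

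Isoform estimates were unstable for several other genes. For EXO1 the most abundant model, ENST00000348581, was at no estimate, 4.84 and 5.36 FPKM in A and 0.821, 6.17 and 3.18 FPKM in G. The alternative ENST00000366548 was at 4.77, 0.880 and 0.346 FPKM in A and 5.72, 0.414 and 2.92 FPKM in G, high in the libraries where the first was low. The gene value of EXO1 had no such swings. ENST00000234420 of MSH6 ranged from 0.830 to 12.5 FPKM, ENST00000383807 of FANCD2 from no estimate to 4.84 FPKM, ENST00000289081 of FANCC from 0.000576 to 3.22 FPKM and ENST00000402731 of CHEK2 from 2.05 to 10.5 FPKM. Such swings occurred within both groups.

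For the remaining genes described above the most abundant models are given by their means. Those of XRCC2 (ENST00000359321), PMS2 (ENST00000265849), RAD51AP1 (ENST00000352618), RAD50 (ENST00000378823) and RBBP8 (ENST00000327155) had A and G means of 1.89 and 2.38, 8.10 and 9.89, 4.30 and 6.62, 5.17 and 7.03, and 2.60 and 3.47 FPKM. PALB2 (ENST00000261584), NBN (ENST00000265433), FANCE (ENST00000229769), FANCF (ENST00000327470) and FANCL (ENST00000402135) had 3.71 and 4.004, 4.16 and 4.18, 5.88 and 5.74, 4.01 and 3.999, and 4.87 and 4.71 FPKM. FANCG (ENST00000378643) had 6.49 and 5.34 FPKM and XRCC3 (ENST00000553264) 7.08 and 6.66 FPKM. None of these transcripts was called, and the groups were apart for XRCC2 and PMS2, higher in G, and for FANCG, lower in G. How often the groups were apart over all tested transcripts was not determined. For BLM (ENST00000558825) and EME1 (ENST00000507616) the most abundant model by FPKM was one annotated with a retained intron. The BLM model ranged from 1.003 to 1.18 FPKM in A and was at 1.75, 0.788 and 3.03 FPKM in G, a further unstable estimate. For RAD51C the most abundant model was the short ENST00000421782, with means of 1.245 and 1.252 FPKM.

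**Figure D4:**
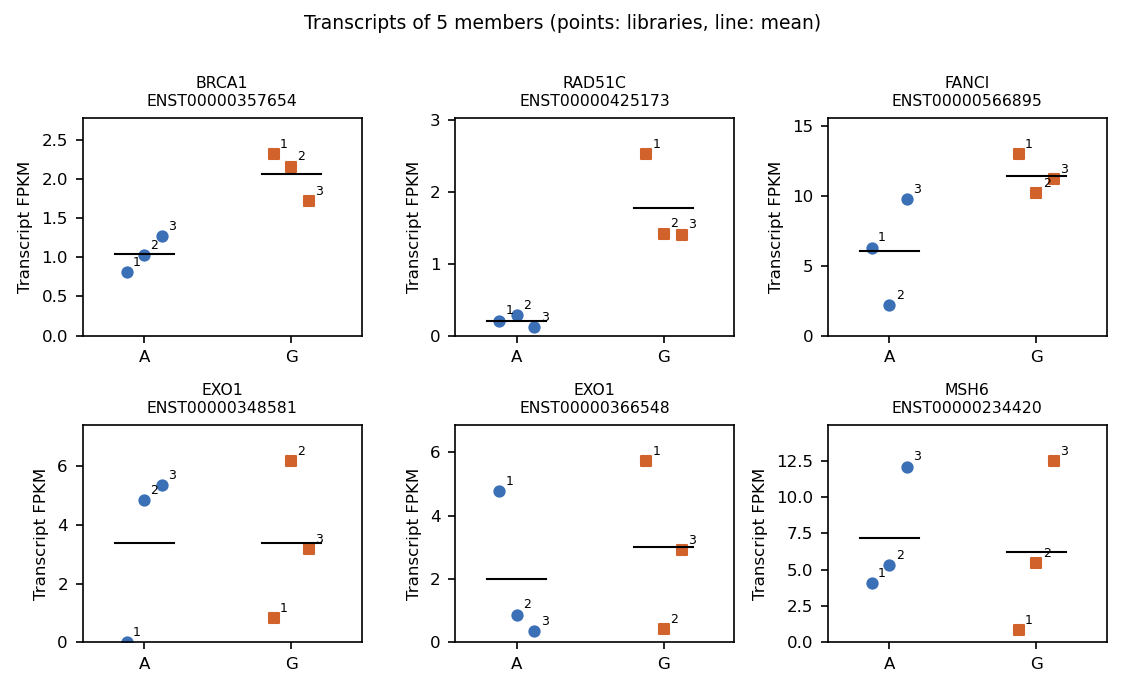
Transcript FPKM by library (numbers give the replicate, lines the group mean) for 6 transcripts of 5 genes. The BRCA1, RAD51C and FANCI transcripts are apart between A and G, while the EXO1 and MSH6 transcripts vary as much within a group as between groups.

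Genes of the same pathways outside the 35 had a median near that of all genes. Of 93 such genes 85 were tested, 49 were positive, and the median log2 change was 0.027. limma called 0 of them (smallest adjusted p = 0.179). At an unadjusted p under 0.05, 8 of the 85 were higher and 5 lower, where the shares over all tested genes were 10.5% and 6.82%. By pathway, 23 of 37 other homologous recombination genes were positive, 9 of 16 Fanconi genes, 4 of 5 mismatch repair genes and 13 of 27 checkpoint and break signalling genes. The difference between the 35 genes and these 93 was not tested, and the 35 were picked with earlier results of these data known.

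Of these, the nuclease scaffold SLX4 had means of 1.49 ± 0.127 and 2.22 ± 0.176 FPKM (SD, n = 3), and the mismatch repair gene MLH3 had 2.88 ± 0.479 and 4.09 ± 0.174 FPKM. The fork protection factor TIMELESS had 6.30 ± 0.247 and 7.75 ± 0.527 FPKM, the ubiquitin ligase RNF168 had 5.98 ± 0.257 and 7.25 ± 0.426 FPKM, and the helicase MCM8 had 3.24 ± 0.293 and 3.93 ± 0.179 FPKM. Lower in G were H2AFX, the histone phosphorylated at breaks, at 24.8 ± 0.318 and 20.8 ± 1.61 FPKM, the recombination gene SWI5 at 7.18 ± 0.0919 and 6.03 ± 0.347 FPKM, and the clamp subunit HUS1 at 3.92 ± 0.180 and 3.21 ± 0.0962 FPKM. Each of these 8, named for having the smallest p, had groups that did not overlap and a limma adjusted p between 0.179 and 0.244. Of all 85 tested, 14 were higher and 6 lower without overlap, where the shares over all tested genes were 15.4% and 9.57%.

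Non-homologous end joining, the route that religates breaks without a template, had 11 of 14 genes tested, with 3 positive and a median of -0.016. Its DNA end binder XRCC6 had means of 91.3 ± 0.367 and 89.7 ± 1.61 FPKM, far above any of the 35 genes per length of exon. PRKDC, the kinase of this route, had means of 7.76 ± 1.45 and 9.92 ± 0.310 FPKM (limma adjusted p = 0.2485). Both were named after their values were seen.

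S phase and proliferation genes were read beside the repair genes since both sets are known to follow the cell cycle. Of 24 genes 23 were tested, 14 were positive, the median was 0.083 and limma called 0 (smallest adjusted p = 0.146). At an unadjusted p under 0.05 limma placed 2 of the 23 higher and 0 lower in G, where 10.5% of all tested genes were higher and 6.82% lower. Without overlap 3 were higher and 2 lower, where the shares over all tested genes were 15.4% and 9.57%. The summed FPKM of the 24 was 331.7 to 347.4 in A and 356.8 to 364.1 in G, without overlap. Abundant genes weigh most in this sum, and 9 of the 23 tested genes had a negative change. TOP2A, the topoisomerase of dividing cells, was at 34.3, 31.6 and 33.6 FPKM in A and 45.4, 40.7 and 42.5 FPKM in G. The replication helicase subunit MCM6 had means of 5.11 ± 0.414 and 6.22 ± 0.244 FPKM, CCNA2 of 20.3 ± 1.009 and 22.9 ± 1.80 FPKM and CDK1 of 30.1 ± 1.07 and 34.3 ± 3.69 FPKM. These 4 genes were named for the smallest p of the 23, and CCNA2 and CDK1 did not reach an unadjusted limma p under 0.05. The part of cell cycle distribution in the levels of the 35 genes was not tested.

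**Figure D5:**
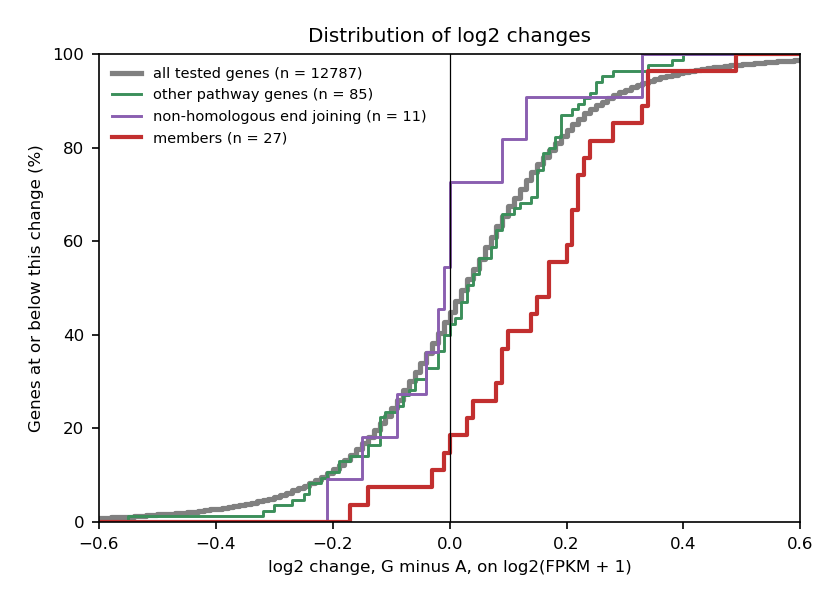
Share of genes at or below each log2 change, G minus A, for all tested genes, the other pathway genes, non-homologous end joining and the 27 repair genes. The repair genes have quartiles of 0.051, 0.17 and 0.22, against -0.096, 0.022 and 0.14 for all tested genes and -0.084, 0.027 and 0.15 for the other pathway genes.

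The 35 genes lie on 18 chromosomes, with 5 on chromosome 17, namely BRCA1, BRIP1, RAD51C, RAD51D and EME1. Of these 5, RAD51C and RAD51D had lower means in G and the other 3 had higher means, and RAD51D and BRIP1 were untested. Per the authors' deposited table, a total of 29 of the 35 genes have a positive log2 ratio, BRCA1 and BRCA2 have a p under 0.05 (0.00214 and 0.0140), and 0 are marked significant. Over all 58825 genes, which include genes with no estimate, 844 have a p under 0.05 in the authors' deposited table. How many of all genes have a positive ratio there was not determined. The smallest q of the 35 in the authors' deposited table is 0.250.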

How the data were processed

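Libraries were made from poly(A) RNA with dUTP marking of the second strand and sequenced from both ends, per the labels' protocols. Per the submitters' processing notes, cutadapt 1.9, HISAT2 2.0.4 and StringTie 1.3.4d were used. The notes name a mouse build, but 206348 transcripts matched GENCODE 29 and 94.6% of them had the same GRCh38 position and strand, so positions are GRCh38. The authors deposited FPKM for 58825 genes and 208460 transcripts, with 0.0001 for no estimate. Beside these, the authors deposited a q-value, a p-value, a fold ratio of G to A and the log2 of that ratio. For 31 of the 35 genes the gene FPKM is per the union of annotated exons within 1%. StringTie can shift reads between overlapping genes. FPKM steps gave depth estimates sought within a preset window. Only 14.9% to 25.5% of low values were whole multiples within 0.02 read pairs, which is too few to recover counts, so count models were not fitted.

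Changes are on the log2(FPKM + 1) scale, which understates those of low genes. Genes and transcripts with at least 1 FPKM in at least 3 libraries were tested with limma 3.58.1 with an intensity trend (R 4.3.3), G against A over all 6 libraries, adjusted by Benjamini-Hochberg over all genes or transcripts, at 0.05. The fit was tested on simulated data. FOXM1 also had an exact two-sided permutation test. Python 3.11.15 and pandas 2.3.3 read the tables. Alternatives changed the pseudocount, filter, scaling, variance model, library weights, replicate block, overlapping genes and set of libraries, and trends over length and GC content were removed for the 99.9% of tested genes with both values.

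The 35 genes, the other lists and the rule for named genes were chosen with earlier results of these data known. Values in every library are given for the 14 tested genes with the smallest unadjusted p, the most expressed tested gene of each role and the 4 with a log2 change nearest 0. Of the other pathway genes 8 and of the S phase genes 4 with the smallest p are named, as are the 6 member transcripts with the smallest p and the most abundant transcript of each gene given in every library. Other genes were named after their values were seen. 1 gene of the other pathway genes is not reported here by name.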

Additional observations from a re-analysis of the deposited data

How the results depend on the processing

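In all 19 alternatives limma called 0 of the repair genes tested, and in the 16 of them run on transcripts it called 0 of theirs. The number of repair genes tested was 35 without a filter, 32 with a filter at 0.5 FPKM, 29 with overlapping genes summed and otherwise 27. The smallest adjusted p among the genes ranged from 0.0858 (equal sums per library) to 0.396 (without A replicate 2). The median of the tested repair genes was 0.24 with equal sums and 0.077 with length and GC trends removed, and it was 0.0998 to 0.18 when 1 library was left out. The count with an unadjusted p under 0.05, higher in G, was 15 with equal sums, 5 with quantile normalization, 5 with length and GC trends removed, and 4 to 8 when 1 library was left out. The shares over all genes in these settings were 22.3%, 8.65%, 6.94% and 6.62% to 12.9%. The count lower in G was 1 with a pseudocount of 0.1 or 0.01, without a filter and with length and GC trends removed, and 2 with median-ratio factors, quantile normalization or no variance trend. In the order named, the shares of all genes lower in G were 6.79%, 6.75%, 3.68%, 7.79%, 8.76%, 7.11% and 6.19%. With equal sums 17 genes did not overlap and were higher, and 0 were lower, where the shares over all genes were 29.5% and 3.31%. The median of the other pathway genes was 0.041 and 0.042 with pseudocounts of 0.1 and 0.01, 0.110 with equal sums, 0.067 with equal sums without mitochondrial genes, 0.010 with median-ratio factors, -0.014 with quantile normalization and -0.021 with length and GC trends removed.

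Among the 27 tested repair genes and FOXM1, the sign turned under at least 1 alternative for FANCF, FANCE, NBN, XRCC3, ATRIP, ATR, CHEK1, MSH6 and FOXM1. With equal sums FANCF was at 0.081, FANCE at 0.078 and ATRIP at 0.016, and with equal sums without mitochondrial genes FANCF was at 0.032 and FANCE at 0.025. With library weights FANCF was at 0.026, FANCE at 0.033 and ATRIP at 0.055. Quantile normalization gave -0.020 for XRCC3 and -0.018 for NBN. With trends removed FANCE was at 0.042, NBN at -0.072, ATR at -0.081 and CHEK1 at -0.019, and the change of 10 others of the 27 was smaller by over 1.5 times. When 1 library was left out, FANCE ranged from -0.057 to 0.051, FANCF from -0.052 to 0.055, NBN from -0.048 to 0.098, XRCC3 from -0.033 to 0.063, ATRIP from -0.16 to 0.076, MSH6 from -0.075 to 0.39 and FOXM1 from -0.19 to 0.44. The causes were not tested. Over all genes 14 were called, and the count was 1 without a filter, 9 with a filter at 0.5 FPKM or median-ratio factors, 6 with quantile normalization, 4 without a variance trend and 5 to 20 when 1 library was left out.

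Same-numbered libraries correlated by 0.073, 0.015 and 0.040 in their deviations from the group means, and differently numbered ones by -0.0556 to 0.0155. Whether the replicate numbers pair the libraries was not tested. With the replicate block 0 repair genes were called (smallest adjusted p = 0.263), and the count over all genes was 0 instead of 14. Depth limits the short, low genes most, with 21 to 47 read pairs for FANCB, whereas BRCA2 and ATM, long genes under the filter, had 105 to 284 and 129 to 257.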

Other observations

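Annotated transcript types differed between the repair genes, and the genes below were chosen after their values were seen. Models with a retained intron made up 61.4% ± 3.19 (SD, n = 3) of the estimated EME1 fragments in A and 60.7% ± 9.60 in G. In FANCI this share was 44.3%, 18.8% and 71.9% in A replicates 1 to 3 and 70.6%, 60.5% and 69.2% in the G replicates, and A replicate 3 lay above all of G. Models marked for nonsense-mediated decay held 29.2%, 21.9% and 44.5% of RAD51C in A and 14.9%, 12.5% and 14.7% in G, without overlap, while its coding models held 57.0%, 50.4% and 43.1% in A and 63.8%, 72.6% and 64.7% in G. XRCC2, FANCF and BRIP1 consisted of coding models in all libraries. These shares come from isoform estimates and were not tested.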
